A study of Homo sapiens with 4 samples.

Results

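The p53 target genes are genes whose transcription the tumour suppressor p53 is known to raise. A list of 35 of them was followed among the 57879 genes measured in T24 cells, a human bladder carcinoma line. Its genes were chosen by name, with earlier results of these data known. By the symbols of the deposited files 34 were found, and TIGAR was found by its gene identifier under the older symbol C12orf5. The list was divided by what the genes do into growth arrest, feedback on p53, intrinsic cell death, death receptors, DNA repair and nucleotide supply, and metabolism together with a secreted factor.

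RNAseq was performed on 4 libraries of T24 cells. The 2 control libraries came from cells carrying the empty vector, and the 2 TET1-CD libraries from cells expressing the catalytic domain of TET1 from a 3 × FLAG lentiviral vector. TET1 is an enzyme that oxidizes 5-methylcytosine in DNA, and the comparison asks how gene expression differs when its catalytic domain is present. Both groups were grown in RPMI medium with fetal calf serum and bear the source label T24_induced, whose meaning the sources used here do not give. By the study's methods, infected cells were selected with puromycin, so each group is a selected population of 1 line. The transgene is a fragment of the protein driven by a vector and not the full-length gene, and cells with an enzymatically dead form were not analysed here. The sources do not say that the libraries of a group came from separate cultures, so that p-values measure only the spread between these libraries, which may be technical.

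p53 is a transcription factor that is stabilized when DNA is damaged or growth signals are unbalanced. It binds paired copies of a short motif and raises genes that halt the cell cycle (CDKN1A), start apoptosis (BBC3, BAX, FAS), repair DNA (XPC, DDB2) or alter metabolism (TIGAR), together with MDM2, the ubiquitin ligase that returns p53 to a low level.

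The estimated counts summed to between 17442143 and 20295266 fragments per library, and the totals of the groups overlapped. The 10 most abundant genes held 5.37% to 5.79% of a library and mitochondrial genes 2.91% and 3.39% in control and 2.49% and 2.73% in TET1-CD cells. Of the epithelial keratins, KRT7, KRT8 and KRT18 lay between 396 and 697 FPKM (fragments scaled to transcript length and library size), whereas the urothelial differentiation genes UPK1A, UPK1B and UPK3A had at most 2 counts in any library. Of the 12 urothelial and epithelial markers, 4 stood at 3 counts or fewer in every library. These were the same UPK genes and CDH1, which encodes E-cadherin and also had at most 2 counts. EPCAM (1.69 to 2.67 FPKM) and GATA3 (0.38 to 1.0 FPKM) were low as well, and UPK2 had 1 to 6 counts. PPARG, a further urothelial marker, was expressed in every library, at 11.35 to 13.02 FPKM. The summed FPKM of these 12 markers was 1426 to 1476 in control and 1619 to 1654 in TET1-CD cells. KRT19 rose 2.01-fold (adjusted p = 0.00273 by edgeR) and GATA3 2.38-fold (adjusted p = 0.0163). Of the abundant keratins, KRT7 rose 1.27-fold (adjusted p = 0.00175 by edgeR) and KRT18 1.13-fold (adjusted p = 0.0414), whereas KRT8 had a log2 ratio of -0.08. The 4 blood markers were at 3 counts or fewer throughout. A pair of endothelial markers summed to 12 and 16 counts in control and 15 and 22 in TET1-CD cells, and a pair of muscle markers to 14 and 10 and to 11 and 14. The part of the epithelial and mitochondrial differences in the results below was not tested. TET1 itself had 111 and 83 counts in control and 2939 and 3310 in TET1-CD cells, or 32.5-fold more. On the log2 scale the ratio of TET1-CD to control was 5.02, with a standard error (SE) of 0.08 (adjusted p = 4.9e-10 by edgeR's quasi-likelihood test). Log2 ratios below are of TET1-CD over control throughout.

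The best match to the p53 consensus within 5000 bp of the gene start is shown for the 7 members that passed the test below and for CDKN1A, the classical target, because they give the DNA context of the results. The consensus is 2 copies of a 10-base motif, named the p53 response element consensus, which reads the same on both strands and was searched with no bases between the copies. A match kept the C and G at the 4 fixed positions, and mismatches were counted at the others. Each sequence is given 5′ to 3′ on the strand of the gene, and capitals mark the 4 central bases of each copy.
FAS: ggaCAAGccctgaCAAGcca
MDM2: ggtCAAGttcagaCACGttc
BBC3: ctgCAAGtcctgaCTTGtcc
TP53I3: cagCTTGcccaccCATGctc
PLK2: aaaCATGcctggaCTTGccc
AEN: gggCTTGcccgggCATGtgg
TIGAR: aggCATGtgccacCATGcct
CDKN1A: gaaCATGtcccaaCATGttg

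In GRCh37, the build of the files, the FAS match lay at chr10:90751066-90751085 on the plus strand, 661 bp downstream of the gene start and in an exon of an annotated FAS transcript. The MDM2 match was at chr12:69202703-69202722 on the plus strand, in an intron 756 bp past the start. Both had 2 mismatches. PLK2 had no mismatch at chr5:57758101-57758120 on the minus strand, in intergenic DNA at position -2023 relative to the start. AEN had 2 mismatches at chr15:89164537-89164556 on the plus strand, 19 bp from the gene start, and CDKN1A 2 at chr6:36644226-36644245 on the plus strand, at position -70 relative to the start given in the files. The best matches of BBC3 (chr19:47734577-47734596, minus strand, intron), TIGAR (chr12:4434250-4434269, plus strand, intron) and TP53I3 (chr2:24308035-24308054, minus strand, exon, the nearest of 3 equal matches) had 3 mismatches each.

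A match with at most 2 mismatches was found for 15 of the 28 tested members that were searched (53.6%), and for 1098 of 13822 tested genes (7.94%). With up to 3 mismatches the shares were 89.3% and 42.9%, so that a match as loose as those of BBC3, TIGAR and TP53I3 is common near gene starts. Genes on chromosomes 8 and 18 were not searched. A match is a description of letters and not a site at which binding was measured. In RefSeq promoters of GRCh38 (250 bases before to 50 after the start), 28 of the 35 members had an entry. They held a median of 28 CpG dinucleotides, the sequence that TET1 acts on when methylated, against 14 over 27305 promoters. TIGAR had the most with 43, and PLK2 (40) and MDM2 (39) were also dense, whereas TP53I3 had 9 and BBC3 5. A single copy of the motif lay in 4 of the 28 members' promoters (14.3%), those of AEN, FDXR, PLK2 and RPS27L, and in 6.54% of all promoters. For both the CpG and the motif, the 27305 promoters were not limited to genes tested in T24 cells, whereas nearly all members were tested.

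In control and TET1-CD cells, 34 of the 35 members had enough counts for a test. EDA2R, a receptor of the TNF family, had 0 counts in all 4 libraries, which allows up to 3 counts in each. By mean FPKM over the 4 libraries, 21 members were above 10, 11 were between 1 and 10, and 2 were below 1. PLK2, a kinase of the polo family, was highest with 129 and 130 FPKM in control and 157 and 152 in TET1-CD cells. It was followed by PMAIP1 (105 to 109 FPKM over the 4 libraries), which encodes the BH3 protein NOXA, and by SFN (85.0 to 101 FPKM), which encodes the cell cycle inhibitor 14-3-3σ. At the low end stood BTG2 (0.47 to 0.93 FPKM) and SPATA18 (0.43 to 0.80 FPKM).

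**Figure D1:**
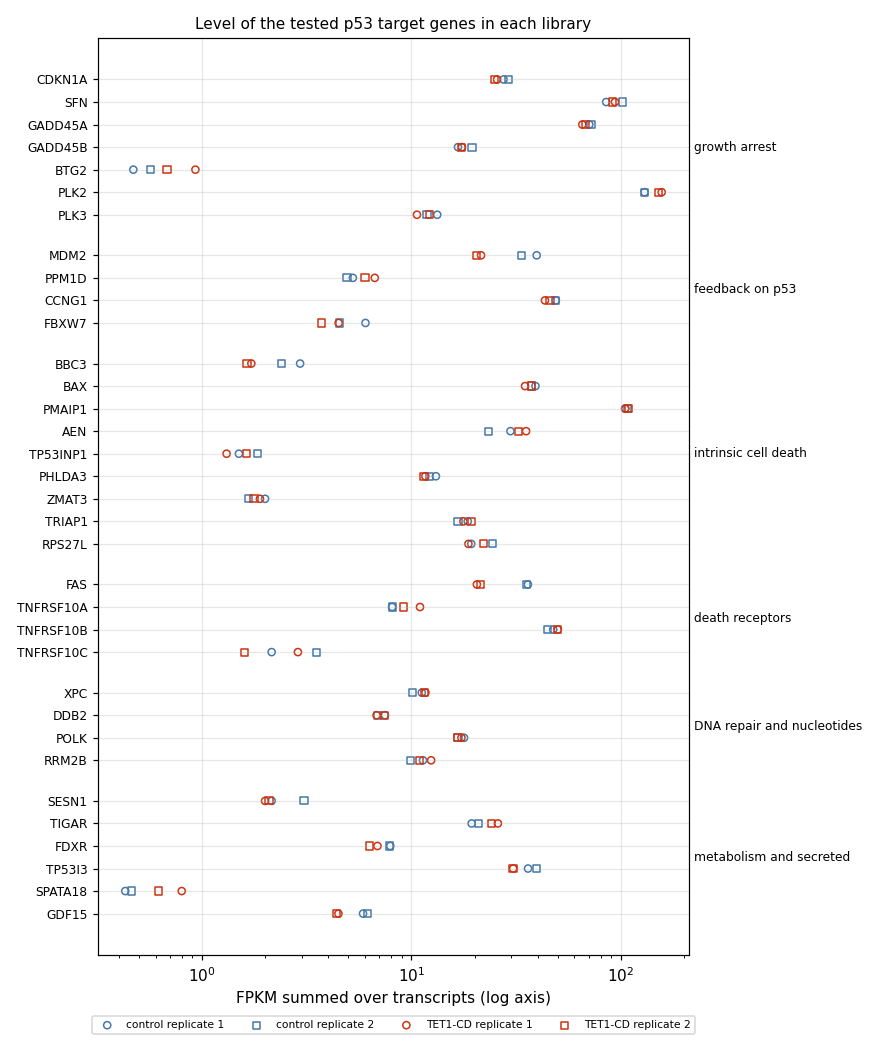
FPKM summed over the transcripts of each gene (log axis) in each of the 4 libraries for the 34 tested members, grouped by role, with 1 symbol per library. The libraries lie close together for most genes, and the control and TET1-CD symbols are clearly apart for MDM2 (33.5 and 39.6 against 20.4 and 21.5 FPKM) and FAS (35.4 and 36.0 against 20.5 and 21.4).

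The p53 target genes did not move together in TET1-CD cells. FAS and MDM2 fell by about the same amount, BBC3 and TP53I3 fell as well, and PLK2, AEN and TIGAR rose by modest amounts. Of the 34 members tested, 7 passed at an adjusted p of 0.05 by edgeR (20.6%), against 19.7% of the 14573 genes tested, a share near the background. The 3 members that rose compare with 10.0% of all genes that rose, and the 4 that fell with 9.61% that fell. None changed at least 2-fold with an adjusted p under 0.05, against 3.77% of all genes, and 13 members (38.2%) had an unadjusted p under 0.05, beside 33.2% of all genes. Under DESeq2 and every other alternative this 2-fold count was also 0. Log2 ratios ran from -0.81 to 0.55 with a median of -0.06, beside 0.00 over all genes. On the lower side were 23 members and on the higher side 11, beside 7259 and 7314 of all genes tested. The groups did not overlap for 21 members (61.8%), beside 61.0% of all genes, with 14 below (all genes 30.2%) and 7 above (all genes 30.8%). These are bulk libraries, in which fewer cells expressing a gene and less RNA per cell cannot be told apart.

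**Figure D2:**
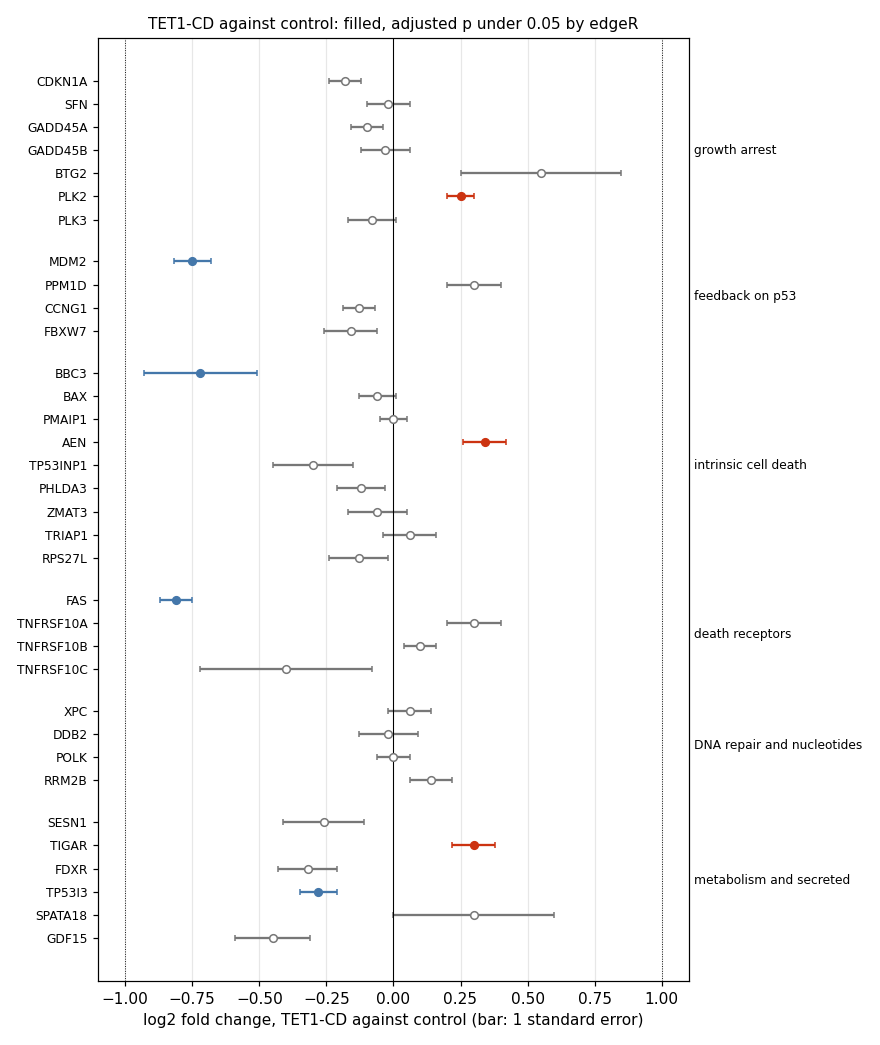
Log2 ratio of TET1-CD over control for the 34 tested members by role, as points with bars of 1 SE and with the 7 that passed the test filled in colour and dotted lines at a 2-fold change. FAS (-0.81), MDM2 (-0.75) and BBC3 (-0.72) lie farthest to the left, and the 4 repair genes lie between -0.02 and 0.14.

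Among the 7 growth arrest genes, PLK2 was the only one to pass. PLK2 had 7281 and 6217 counts in control and 7483 and 8402 in TET1-CD cells. After TMM normalization these were 6714 ± 7.001 and 7983 ± 27.6 (SD, n = 2 each), with both TET1-CD libraries above both control libraries. The log2 ratio was 0.25 (SE 0.05, adjusted p = 0.0074 by edgeR), a rise of 18.9%. A single PLK2 transcript, ENST00000274289, carried 97.7% to 98.8% of the counts of each library. CDKN1A, which encodes the CDK inhibitor p21, had 1150 and 1012 counts in control and 895 and 997 in TET1-CD cells, or 1077 ± 21.8 and 951 ± 2.04 after normalization (SD, n = 2 each). The normalized values did not overlap, and the log2 ratio of -0.18 (SE 0.06) missed the threshold with an adjusted p of 0.0681.

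Of the other arrest genes, SFN had a log2 ratio of -0.02, GADD45B of -0.03, PLK3 of -0.08 and GADD45A of -0.10, each with a SE of 0.06 to 0.09. GADD45A and GADD45B are stress sensors, and proteins of their family are also known to take part in DNA demethylation. BTG2, an antiproliferative gene, had 26 and 27 counts in control and 41 and 36 in TET1-CD cells. The groups of BTG2 did not overlap, but its counts are low and its log2 ratio of 0.55 (SE 0.30) had an adjusted p of 0.227.

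The feedback genes act on p53 itself or on its regulators. MDM2 had 3904 and 2969 counts in control and 1952 and 2077 in TET1-CD cells. Its normalized counts were 3403 ± 281.9 and 2028 ± 70.1 (SD, n = 2 each), and every TET1-CD library was below every control library. The log2 ratio was -0.75 (SE 0.07, adjusted p = 6.58e-05 by edgeR), so that MDM2 was 1.68-fold lower. Per length, MDM2 had 39.6 and 33.5 FPKM in control and 21.5 and 20.4 in TET1-CD cells.

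Nearly all MDM2 counts (88.6% to 93.7%) were assigned to the transcript ENST00000462284. It had 3547 and 2781 counts in control and 1729 and 1947 in TET1-CD cells, so it carried most of the fall in counts. Per length, this transcript had 23.7 and 21.6 FPKM in control and 13.4 and 13.5 in TET1-CD cells. That is less than the fall of the whole gene in FPKM, so other transcripts held part of it. The gene RP11-611O2.3 overlaps MDM2 on the same strand and had 148 and 108 counts in control and 77 and 69 in TET1-CD cells. Reads that both genes could give may have been split between them.

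PPM1D, a phosphatase that removes phosphates from p53 and from damage kinases, had 318 and 256 counts in control and 349 and 350 in TET1-CD cells. The log2 ratio of PPM1D, 0.30 (SE 0.10), had an adjusted p of 0.0657. CCNG1, a cyclin that recruits a phosphatase to MDM2, had a log2 ratio of -0.13 (SE 0.06), and FBXW7, a receptor subunit of a ubiquitin ligase, of -0.16 (SE 0.10). The groups overlapped for none of the 4 feedback genes, MDM2 included, where 61.0% of all genes do not overlap, and 1 of the 4 passed, where 19.7% of all genes pass.

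Intrinsic cell death was represented by 9 genes, of which AEN rose and BBC3 fell. BBC3, which encodes the BH3 protein PUMA, had 98 and 68 counts in control and 49 and 50 in TET1-CD cells. This was 81.9 ± 12.1 and 49.9 ± 3.20 after normalization (SD, n = 2 each), with no overlap between the groups. Its log2 ratio was -0.72 (SE 0.21, adjusted p = 0.0344 by edgeR), but DESeq2 gave an adjusted p of 0.198. Leaving out control replicate 1 gave an adjusted p of 0.155, leaving out TET1-CD replicate 1 gave 0.155, and leaving out TET1-CD replicate 2 gave 0.204. The transcript ENST00000341983 of BBC3 took 53.2% of the counts in TET1-CD replicate 1 and 0% in TET1-CD replicate 2, so that no isoform of BBC3 can be compared at this depth.

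AEN, an exonuclease that digests DNA in apoptosis, had 1635 and 1184 counts in control and 1728 and 1786 in TET1-CD cells. The normalized counts were 1393 ± 163 and 1770 ± 97.5 (SD, n = 2 each), the groups did not overlap, and the log2 ratio was 0.34 (SE 0.08, adjusted p = 0.0162 by edgeR). The 2 control libraries of AEN lay farther apart than the TET1-CD libraries. This held over all genes too, with a chi-square per gene between the libraries of a pair of 6.13 for control and 2.68 for TET1-CD. The log2 ratio of AEN was 0.46 without control replicate 1 and 0.23 without control replicate 2. The adjusted p was 0.181 without TET1-CD replicate 1 and 0.0564 without TET1-CD replicate 2.

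The classical effectors BAX and PMAIP1 did not pass. BAX, which permeabilizes mitochondria, had 774 and 676 counts in control and 640 and 736 in TET1-CD cells, a log2 ratio of -0.06 (SE 0.07). PMAIP1 had 4104 and 3632 counts in control and 3548 and 4106 in TET1-CD cells, and its log2 ratio was -0.00 (SE 0.05) with overlapping groups. At this depth a change of PMAIP1 as large as that of BBC3, which encodes another BH3 protein, would lie many SEs from 0.

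TP53INP1, a stress protein of autophagy and cell death, had a log2 ratio of -0.30 (SE 0.15), and PHLDA3, an inhibitor of AKT signalling, of -0.12 (SE 0.09). ZMAT3, an RNA-binding protein, had -0.06 (SE 0.11), TRIAP1, which opposes apoptosis, 0.06 (SE 0.10), and RPS27L, a ribosomal protein paralog, -0.13 (SE 0.11). RPS27L closely resembles RPS27, and its reads may be shared with that gene. On the opposite strand, LACTB overlaps RPS27L (345 to 417 counts over the libraries) and NDUFAF6 overlaps TP53INP1 (239 to 292 counts). The part of these overlaps was not tested.

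Of the 5 death receptor genes, FAS was the only one to pass. Its change was close in size to those of MDM2 and BBC3, and the order of these members by size or by p was not the same in every alternative. FAS, the receptor of FAS ligand that starts extrinsic apoptosis, had 1683 and 1481 counts in control and 820 and 975 in TET1-CD cells. These were 1576 ± 31.9 and 900.7 ± 39.6 after normalization (SD, n = 2 each), and the groups were far apart compared with the spread inside them. The log2 ratio was -0.81 (SE 0.06, adjusted p = 2.51e-05 by edgeR), which is 1.75-fold lower in TET1-CD cells.

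The transcript ENST00000355740 of FAS held 87.0% to 95.3% of the counts, with 1490 and 1412 in control and 713 and 893 in TET1-CD cells. ENST00000352159 had 110 and 0.10 counts in the control pair and 65.6 and 29.5 in the TET1-CD pair, so its 2 control estimates differed more than the groups. ACTA2, a smooth muscle actin gene on the opposite strand, overlaps FAS and had 149 and 130 counts in control and 107 and 109 in TET1-CD cells. Whether strand was used in the counting is not given in the sources used here. The ACTA2 counts are small beside those of FAS.

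**Figure D3:**
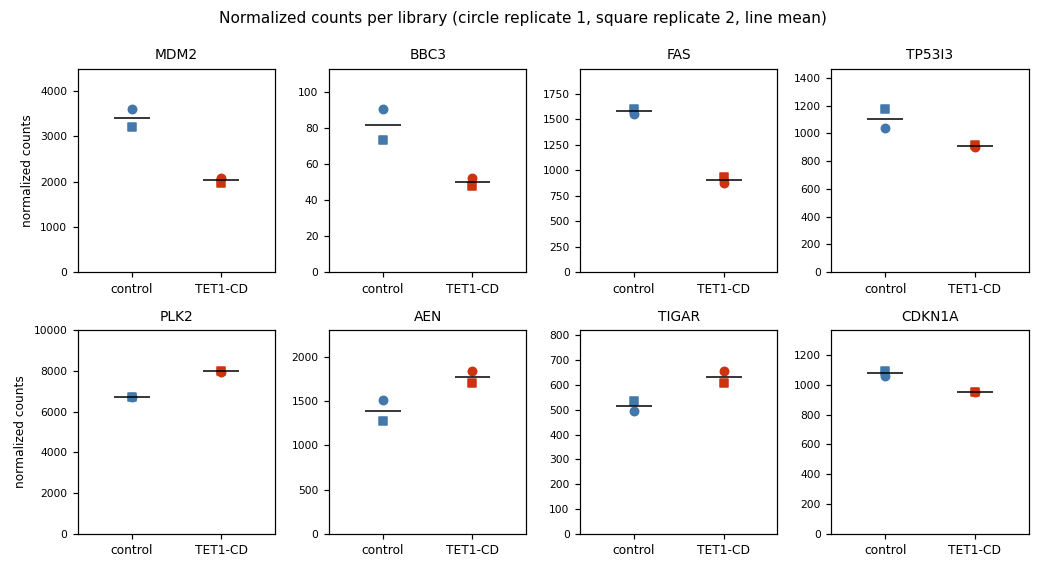
Normalized counts (linear axis from 0) of the 7 members that passed and of CDKN1A in each library, as points, with the group mean as a line. For FAS, MDM2, BBC3 and TP53I3 both TET1-CD points lie below both control points, and for PLK2, AEN and TIGAR both lie above.

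None of the TRAIL receptor genes passed. TNFRSF10A had 445 and 385 counts in control and 522 and 487 in TET1-CD cells, a log2 ratio of 0.30 (SE 0.10, adjusted p = 0.066 by edgeR). TNFRSF10B, the more abundant of these receptors per length (44.71 to 49.97 FPKM, against 8.08 to 11.0 for TNFRSF10A), had a log2 ratio of 0.10 (SE 0.06, adjusted p = 0.229). TNFRSF10C, a decoy receptor without a death domain, had 53 and 77 counts in control and 59 and 39 in TET1-CD cells, with overlapping groups. The TRAIL receptor genes are related in sequence, so that reads could be split between them, and the difference between their changes and that of FAS was not tested.

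None of the 4 genes of DNA repair and nucleotide supply passed, where 19.7% of all genes pass. Their groups overlapped in every case, where 61.0% of all genes do not overlap. XPC, which recognizes DNA lesions in nucleotide excision repair, had 847 and 633 counts in control and 732 and 790 in TET1-CD cells. DDB2, which binds UV damage in chromatin, had 267 and 207 counts in control and 212 and 249 in TET1-CD cells. Log2 ratios were 0.06 (SE 0.08) for XPC and -0.02 (SE 0.11) for DDB2. POLK, a translesion DNA polymerase, had -0.00 (SE 0.06), and RRM2B, a subunit of ribonucleotide reductase, had 0.14 (SE 0.08). On the opposite strand, COL4A3BP overlaps POLK and had 1621 and 1321 counts in control and 1063 and 1191 in TET1-CD cells. LSM3 likewise overlaps XPC, with 1047 and 863 counts in control and 900 and 1088 in TET1-CD cells. The part of such overlaps in the values of POLK and XPC was not tested.

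Across all roles, 11 members had over 100 counts in every library, a fold change under 1.2 and overlapping groups. These were SFN, GADD45B, PLK3, PMAIP1, ZMAT3, TRIAP1, RPS27L, XPC, DDB2, POLK and RRM2B. The same conditions held for 25.9% of all genes tested, beside 32.4% of the tested members. The conditions themselves fix that these ratios are small (-0.13 to 0.14), and their SEs were 0.05 to 0.11.

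In the group of metabolism and secreted products, TIGAR rose and TP53I3 fell. TIGAR, a phosphatase that lowers glycolytic flux, had 535 and 494 counts in control and 616 and 639 in TET1-CD cells. Its normalized counts were 513.4 ± 27.9 and 632.1 ± 33.2 (SD, n = 2 each), without overlap, and the log2 ratio was 0.30 (SE 0.08, adjusted p = 0.0331 by edgeR). With DESeq2 the adjusted p was 0.126, and it was above 0.05 without control replicate 1 (0.071), TET1-CD replicate 1 (0.272) or TET1-CD replicate 2 (0.101). All TIGAR counts were assigned to ENST00000179259.

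TP53I3, a quinone oxidoreductase linked to oxidative stress, had 1125 and 1087 counts in control and 848 and 959 in TET1-CD cells. These were 1106 ± 95.4 and 907.9 ± 7.74 after normalization (SD, n = 2 each), with both TET1-CD libraries lower. The log2 ratio was -0.28 (SE 0.07, adjusted p = 0.0232 by edgeR), a difference of -17.8%, and DESeq2 gave an adjusted p of 0.0641. Its counts were shared mainly between ENST00000335934 (58.4% to 62.5% of a library's counts) and ENST00000238721 (27.1% to 31.9%), in proportions that overlapped between the groups.

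GDF15, a secreted stress cytokine, had 143 and 127 counts in control and 93 and 103 in TET1-CD cells. The groups were separate, and its log2 ratio of -0.45 (SE 0.14) had an adjusted p of 0.0524. FDXR, a mitochondrial reductase of steroid and iron-sulphur metabolism, had 301 and 260 counts in control and 222 and 223 in TET1-CD cells, a log2 ratio of -0.32 (SE 0.11, adjusted p = 0.0675 by edgeR). SESN1, an inhibitor of mTORC1 signalling, had a log2 ratio of -0.26 (SE 0.15). SPATA18, which acts in mitochondrial quality control, had only 27 to 43 counts and a log2 ratio of 0.30 (SE 0.30).

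Set side by side, the median log2 ratios of the roles were -0.03 for arrest (1 of 7 tested members passed), -0.15 for feedback (1 of 4), -0.06 for intrinsic death (2 of 9), -0.15 for death receptors (1 of 4), 0.03 for repair (0 of 4) and -0.27 for metabolism (2 of 6). Over all genes tested, 19.7% passed and the median log2 ratio was 0.0. The roles hold few genes each, and differences between roles were not tested. The 7 members that passed were not equally firm. MDM2 and FAS passed under all 11 alternatives of the processing, with log2 ratios of -0.83 to -0.67 and of -0.85 to -0.76. PLK2 and AEN passed under 9 of them, TP53I3 under 8, and BBC3 and TIGAR under 7, and none of the 7 changed sign. PLK2 had an adjusted p of 0.151 without TET1-CD replicate 1 and of 0.143 without TET1-CD replicate 2, and for TP53I3 these were 0.215 and 0.156. Without TET1-CD replicate 1 or without TET1-CD replicate 2, the members that passed numbered 2, those 2 being MDM2 and FAS, and without control replicate 1 they numbered 12.

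The genes that act on p53 were counted from a list of 34 regulators and cofactors, of which 32 were tested. TP73, a relative of p53 that binds similar DNA motifs, had 551 and 434 counts in control and 311 and 334 in TET1-CD cells. TP73 fell by 0.59 on the log2 scale (SE 0.09, adjusted p = 0.00212 by edgeR), and was 1.51-fold lower. Another relative, TP63, had 2 counts in each control library and 0 in each TET1-CD library, below the floor of 3 counts.

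In all, 7 of the 32 regulators passed (21.9%, beside 19.7% of all genes), 3 of them higher and 4 lower, with a median log2 ratio of 0.02. USP7, a deubiquitinase of MDM2 and p53, rose by 0.24 on the log2 scale (SE 0.05, adjusted p = 0.0111 by edgeR), and TRIM24, a ubiquitin ligase for p53, by 0.31 (SE 0.09, adjusted p = 0.0358). PPP1R13L, which encodes the inhibitor iASPP, fell by 0.28 (SE 0.06, adjusted p = 0.00901). Without TET1-CD replicate 1 or 2 the adjusted p was 0.153 and 0.177 for USP7, 0.214 and 0.183 for TRIM24, and 0.0965 and 0.153 for PPP1R13L. TRIM24 also missed the threshold without control replicate 2 (0.0823) and with DESeq2 (0.141).

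MDM4, the partner of MDM2, had a log2 ratio of -0.14 (SE 0.09, adjusted p = 0.274 by edgeR). CDKN2A, whose product p14ARF inhibits MDM2 and whose other product p16 inhibits CDK4, had 1373 and 1403 counts in control and 1142 and 1267 in TET1-CD cells, a log2 ratio of -0.20 (SE 0.08, adjusted p = 0.122). The values of CDKN2A are sums over both products. None of the 5 DNA damage kinases passed, where 19.7% of all genes pass, and their log2 ratios lay between -0.03 and 0.18.

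A further 29 genes known as p53 targets but outside the list of 35 were examined, of which 28 were tested. Of these, 15 passed (53.6%, beside 19.7% of all genes), 4 higher and 11 lower, and the median log2 ratio was -0.19. The list was written by hand with earlier results of these data known, and several of its genes are also controlled by other pathways, so that its count is a description. THBS1, a matrix glycoprotein that restrains angiogenesis, had 3001 and 2372 counts in control and 4285 and 3805 in TET1-CD cells, a log2 ratio of 0.62 (SE 0.09, adjusted p = 0.00188 by edgeR).

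BTG1, an antiproliferative relative of BTG2, fell by 0.62 on the log2 scale (SE 0.08, adjusted p = 5.96e-04 by edgeR), with 1916 and 1879 counts in control and 1102 and 1352 in TET1-CD cells. CD82, a tetraspanin that suppresses metastasis, fell by 0.48 (SE 0.08, adjusted p = 0.00273). FBXO22, a subunit of a ubiquitin ligase, rose by 0.36 (SE 0.06, adjusted p = 0.00267), but its adjusted p was 0.0658 without TET1-CD replicate 1. A single gene of this list, TP53I11, changed at least 2-fold and was named after its values were seen. It had 4 and 1 counts in control and 16 and 22 in TET1-CD cells, so that its log2 ratio of 2.88 (SE 0.62, adjusted p = 0.0107) rests on few fragments. With 1 library left out the ratio ran from 2.33 to 3.98, and the adjusted p was 0.0692 without TET1-CD replicate 1 and 0.124 without TET1-CD replicate 2.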

How the data were processed

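The authors deposited, for each library, expected counts (estimated fragments that need not be whole) and FPKM for 195700 transcripts on hg19 (GRCh37). The submitters' processing notes name cutadapt 1.9.1, HISAT2 2.0.1, HTSeq 0.6.1 and DESeq2 without roles, and the quantifier is not given in the sources used here. The deposited expected counts were summed per gene identifier and rounded, and the deposited FPKM values were summed over transcripts. TET1-CD and control cells were compared in R 4.3.3 with edgeR 4.0.16 (glmQLFit and glmQLFTest, TMM, filterByExpr, no block) with Benjamini-Hochberg adjustment over 14573 genes. A gene passed at an adjusted p under 0.05. Standard errors were obtained from the log2 ratio and its F statistic (ratio over root F). Normalized counts are scaled to the mean effective library size. The fit was tested on simulated data. Alternatives were DESeq2 1.42.0, limma-voom (limma 3.58.1), a replicate block, RLE, a minimum of 10 counts per library, unfiltered genes, unscaled library sizes and fits without each library. The members and lists were chosen with earlier results of these data known. Genes named were all members, TP63, TP73, MDM4 and CDKN2A, and the 5 genes of smallest p that passed in each further list, apart from some that are not reported here. Depth was 17442143 to 20295266 fragments, and the floor of 3 counts covers counting error only.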

Additional observations from a re-analysis of the deposited data

How the results depend on the processing

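Of the 34 tested members, 7 passed in the edgeR fit. With unfiltered genes 9 passed, with TNFRSF10A (adjusted p = 0.0273 by edgeR) and GDF15 (0.0393) added. DESeq2 called 4 (2 of them lower), and the omission of 1 library gave 2 to 12, with 0 to 5 higher and 2 to 7 lower. Among the regulators 7 passed, DESeq2 called 4, and the omission of 1 library gave 1 to 11. Among the other targets 15 passed and the omission of 1 library gave 4 to 17. The counts over all genes moved as well, from 2865 to 1739 with DESeq2, and to 832 without TET1-CD replicate 1, 1014 without TET1-CD replicate 2, 3760 without control replicate 1 and 3779 without control replicate 2. The TET1 fold change and the absence of members changed 2-fold kept their call under every alternative.

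With the replicate number as a block, 9 members passed, 5 of them higher, and 3235 of all genes passed. The members added by the block were PPM1D (adjusted p = 0.0398 by edgeR) and TNFRSF10A (0.0274). Taken over all genes, same-numbered libraries did not deviate together (correlation of deviations 0.0071 over 14573 genes and 0.0504 over the 7286 genes above the median level). Such a correlation cannot show whether some genes share a batch, which was not tested. The labels give the libraries only a number in common.

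Signs turned for 11 members, none of which had passed. Most were near 0, but TNFRSF10C (-0.40) and SPATA18 (0.30), with few counts, turned as well. PMAIP1 was 0.00884 with library size only. POLK was 0.012 with library size only, 0.00156 with 10 counts in every library and 6e-05 with the replicate block. Under the omission of 1 library, the log2 fold changes ranged from -0.16 to 0.11 for SFN, -0.11 to 0.036 for GADD45B, -0.036 to 0.023 for PMAIP1, -0.16 to 0.055 for ZMAT3, -0.011 to 0.13 for TRIAP1, -0.27 to 0.00707 for RPS27L, -0.81 to 0.017 for TNFRSF10C, -0.032 to 0.16 for XPC, -0.092 to 0.044 for DDB2, -0.027 to 0.017 for POLK and -0.013 to 0.57 for SPATA18. The cause was not tested. With 2 libraries per group, the spread of a gene with few counts (BBC3, BTG2, SPATA18, TNFRSF10C) is poorly known and rests on the spread of all genes.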
